A study of Mus musculus with 67 samples.

Results

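Sod1, Sod2, Prdx1, Prdx2, Gpx1, Gpx4, Cat and Txn1 encode the main enzymes and the thioredoxin that remove superoxide and peroxides from mouse cells. These 8 genes were taken by name from a table of 25006 genes, and were chosen by the measured levels of Sod1, whose group means span 159 to 23046 TPM. TPM is a gene's length-scaled share of all transcripts in a library. RNA was measured by Smart-seq2 in 67 libraries of 23 groups, each made from about 10 to 100 cells of 1 tissue of wild-type mouse embryos at 1 embryonic day (E). All embryos were wild type, and the study used a mouse line with an EGFP reporter under the Pdgfra promoter to isolate lineages.

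Groups are named by tissue and day. Blastocysts of E3.5 gave inner cell mass (ICM) and trophectoderm (TE), and TE was taken again at E4.5. Epiblast (Epi), which forms the embryo proper, came from 5 days between E4.5 and E5.5, and primitive endoderm (PrE) from the first 4 of these. Visceral endoderm (VE) at E5.5 was sampled in vitro as a whole and in vivo as VE_Epi and VE_ExE, named for the epiblast and for the extra-embryonic ectoderm. That ectoderm (ExE) and the giant cells of the trophoblast (TGC) were collected on E4.75 and E5.5. At E5.5 the labels say in vitro for Epi, VE, ExE and TGC, and in vivo for Epi, ExE, VE_Epi and VE_ExE. At E5.0 and E5.25 there was an Epi group labelled in vivo and another with no such label, whose culture state the labels do not state, as for the remaining groups. The number of libraries was 3 per group, but 4 for TGC in vitro at E5.5, and 2 each for the in vivo groups VE_Epi, Epi and ExE of that day. The labels call them biological replicates without naming embryos, so p-values reflect only how far these libraries differ, and that spread can be technical.

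Superoxide dismutases turn superoxide into hydrogen peroxide: Sod1 is the copper and zinc enzyme of the cytosol and Sod2 the manganese enzyme of mitochondria. Hydrogen peroxide is then removed by catalase in peroxisomes, by peroxiredoxins, which are recycled by thioredoxin, and by glutathione peroxidases, which use glutathione. Gpx4 is the member of that family that reduces lipid peroxides in membranes. The transcription factor NRF2 (Nfe2l2), held back by Keap1, drives many genes of this system through a DNA motif called the antioxidant response element.

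The promoters shown here are those of Sod1, which set the choice of these genes, of Prdx1, the only other member with the core of that motif, and of Txn1, whose level moved against that of Sod1 at E5.5. The sequences are from RefSeq on GRCm38.p6, read 5′ to 3′ on the gene's strand and ending before the first annotated exon. Capitals mark the motif core TGACNNNGC, found here in its reverse orientation, GCNNNGTCA. The windows lie at chr16:90220512-90220753 on the plus strand for Sod1, chr4:116685349-116685543 on the plus strand for Prdx1, and chr4:57956412-57956661 on the minus strand for Txn1.
Sod1: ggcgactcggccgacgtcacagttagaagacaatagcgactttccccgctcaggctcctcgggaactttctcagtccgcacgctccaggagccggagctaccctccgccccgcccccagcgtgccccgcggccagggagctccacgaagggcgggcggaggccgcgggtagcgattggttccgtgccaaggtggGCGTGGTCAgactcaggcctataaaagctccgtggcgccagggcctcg
Prdx1: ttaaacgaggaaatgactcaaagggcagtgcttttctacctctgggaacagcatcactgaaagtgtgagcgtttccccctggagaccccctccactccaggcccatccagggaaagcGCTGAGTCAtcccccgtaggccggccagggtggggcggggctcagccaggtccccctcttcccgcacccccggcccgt
Txn1: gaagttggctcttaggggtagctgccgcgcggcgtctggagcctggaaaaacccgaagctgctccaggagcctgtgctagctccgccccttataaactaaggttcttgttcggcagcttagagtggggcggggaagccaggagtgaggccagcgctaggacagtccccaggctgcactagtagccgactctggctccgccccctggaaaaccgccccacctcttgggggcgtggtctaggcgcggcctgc
Counted from the transcription start, the motif begins at position -56 in Sod1 as GCGTGGTCA, and at position -133 in Prdx1 as GCTGAGTCA. Searched on both strands of windows of 300 bases, the same 9 letters occurred in 4071 of 32851 mouse promoters, or 12.4%. All 8 genes had a promoter in that table, and the letters were in no window of the other 6. A match in these letters is a description and shows no binding.

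All 8 genes reached 1 TPM in 3 or more libraries, the filter used, as did 15567 genes in all. Sod1 (chromosome 16, 90220754 to 90226329, GRCm38) was lowest in PrE of E4.5, at 143, 160.3 and 174 TPM in the 3 libraries, and low in Epi of E4.5, at 199, 203 and 193 TPM. It reached 21825 and 24268 TPM in Epi of E5.5 in vivo, where it made up 2.32% of all TPM. The highest group mean was 145 times the lowest, or 7.18 on the log2 scale. These values chose the gene, so they are given with no test.

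At E5.5 Sod1 was high in every tissue sampled, whether in vivo or in vitro. All 22 libraries of E5.5 lay between 8849 and 24268 TPM, with a median of 17362 TPM. The 45 earlier libraries lay between 143 and 5964 TPM, with a median of 2650 TPM, so the ranges did not overlap. How many of all genes separate these libraries in the same way was not counted. Among E5.5 groups the highest mean of Sod1 was 2.39 times the lowest. It ranked among the 4 most abundant genes in each of the 8 groups of E5.5, and at 1111 in PrE of E4.5. The labels name no sequencing batch, so stage and any batch cannot be told apart.

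**Figure D1:**
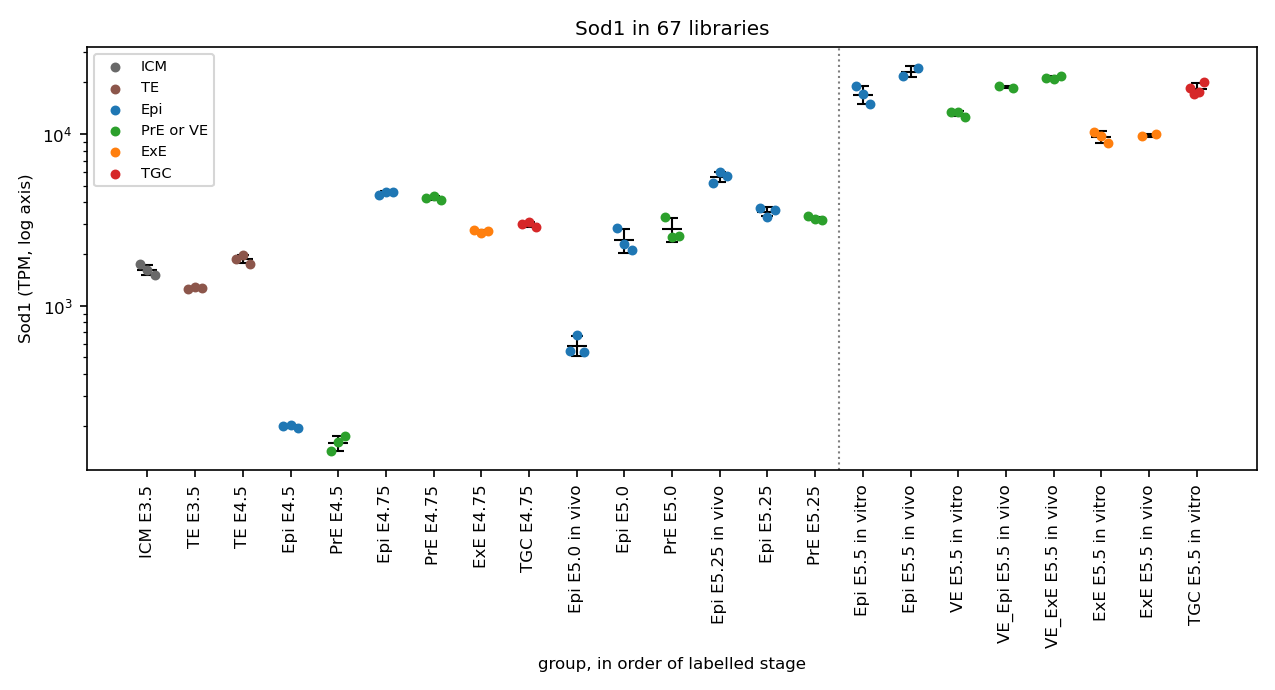
Sod1 in TPM on a log axis for each of 67 libraries (points), by group in order of labelled stage, with group mean and SD (black bars). All 22 libraries of E5.5, right of the dotted line, sit above 8849 TPM, and the 6 libraries of Epi and PrE at E4.5 sit lowest, between 143 and 203 TPM.

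From low to high, PrE of E4.5 (159 ± 15.7 TPM, mean ± SD, n = 3) was followed by Epi of E4.5 (198 ± 4.89) and Epi of E5.0 in vivo (586 ± 77.0). Next came TE of E3.5 (1264 ± 16.6), ICM (1623 ± 114) and TE of E4.5 (1874 ± 111). Epi of E5.0 (2411 ± 382), ExE of E4.75 (2712 ± 55.6), PrE of E5.0 (2793 ± 440.2) and TGC of E4.75 (2976 ± 91.6) had overlapping neighbours in this order. PrE of E5.25 (3225 ± 79.5) and Epi of E5.25 (3532 ± 211) also overlapped, and were followed by PrE of E4.75 (4238 ± 86.8), Epi of E4.75 (4543 ± 103) and Epi of E5.25 in vivo (5608 ± 391). At E5.5, ExE in vitro (9644 ± 740) and in vivo (9815 ± 158, n = 2) overlapped and were lowest. VE in vitro (13111 ± 436) came next. Epi in vitro (16937 ± 2010) overlapped TGC in vitro (18347 ± 1350, n = 4), which overlapped VE_Epi in vivo (18737 ± 245, n = 2). VE_ExE (21267 ± 383) and Epi in vivo (23046 ± 1727, n = 2) were highest. In all, 7 of 22 neighbours in this order had overlapping libraries.

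Between E4.5 and E4.75 the mean of Sod1 differed 22.9 times in Epi and 26.6 times in PrE, and the libraries did not overlap. From E4.75 to E5.0 it was lower by a ratio of 0.531 in Epi and 0.659 in PrE. Into E5.5 the means were 4.80 times higher in Epi in vitro, 4.11 times in Epi in vivo, 3.56 times in ExE and 6.16 times in TGC, in each case without overlap. Within a stage, the highest group mean was 11.8 times the lowest at E4.5 and 4.77 times at E5.0, and between 1.28 and 2.39 times at the other stages. PrE and Epi differed by a ratio of 0.933 at E4.75, 1.16 at E5.0 and 0.913 at E5.25, with overlapping libraries at E5.0 and E5.25, and TGC over ExE gave 1.90 at E5.5. Epi of E5.0 was 4.12 times higher without the in vivo label than with it, whereas at E5.25 that ratio was 0.63.

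Ribosomal RNA and actin also differed between these groups. Rn45s, the ribosomal RNA precursor, was highest in the 3 groups where Sod1 was lowest: 184228 to 246288 TPM in Epi of E4.5, 150323 to 206165 TPM in PrE of E4.5 and 82020 to 110364 TPM in Epi of E5.0 in vivo. Without Rn45s in the TPM total, the log2 ratio of the highest to the lowest Sod1 mean was 6.90. Actb, the cytoskeletal actin, was at 11384 to 153742 TPM in the E5.5 libraries and 499.7 to 21219 TPM in earlier ones, which overlap. The median transcript length weighted by TPM was 877 to 1194.5 bases at E5.5 (median 1082) and 859 to 1227 bases earlier (median 970), with Epi and PrE of E4.5 at 1145 to 1227 bases. The part of ribosomal RNA, actin and transcript length in the Sod1 levels was otherwise not tested. In bulk libraries, fewer cells of a type and less RNA per cell cannot be told apart.

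The genes whose group means followed Sod1 most closely were Gatad1 (Pearson r 0.95), Arglu1 (0.94), Uqcc2 (0.94), Lrrc8a (0.94), Ado (0.94), Amd1 (0.94), Rps25 (0.93) and Zfp691 (0.93). They were picked among 11469 genes with a range of at least 2 log2, over 23 group means of log2(TPM + 1) that share library preparation and composition. Gatad1 ran from 0 to 80.4 TPM before E5.5 and from 173 to 915 TPM at E5.5, again without overlap. Rps25, a ribosomal protein gene, ran from 391 to 3216 TPM before and from 3749 to 10143 TPM at E5.5. In all, 261 genes reached an r of 0.8 and the median over genes was 0.07, while Actb ranked at 85 with an r of 0.87. The lowest values belonged to Ociad1 (-0.91) and the histone genes H3c15 (-0.89), H3c1 (-0.89) and H3c14 (-0.88), whose near-identical copies make their levels uncertain. H3c15 was at 0 to 4.93 TPM at E5.5 and reached 847 TPM before. No other member followed Sod1 closely: over the same 23 groups, r was 0.28 with Prdx2, -0.14 with Sod2, -0.18 with Prdx1, -0.21 with Cat, -0.23 with Gpx4, -0.45 with Gpx1 and -0.55 with Txn1.

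The other 7 members varied about as much as genes in general. The log2 range of group means was 3.38 for Sod2, 3.52 for Prdx1, 2.70 for Prdx2, 2.40 for Gpx1, 3.87 for Gpx4, 3.55 for Cat and 3.42 for Txn1, beside a median of 2.99 over the 15567 genes and 7.17 for Sod1. Their places among all genes ran from 32.5% of genes with a smaller range (Gpx1) to 71.1% (Gpx4), against 97.0% for Sod1. Among the 2187 genes whose mean was at least that of the lowest member, they ran from 30.6% (Gpx1) to 70.1% (Gpx4), against 90.5% for Sod1. The places of Sod1 carry the values that chose it. Within groups the SDs of the 7 on the log2 scale ran from 0.10 for Prdx2 to 0.34 for Cat, beside a median of 0.46 over all genes and 0.22 over those 2187 genes. TPM being scaled by length, Prdx1 led the 7 with a median library of 2036 TPM, ahead of Gpx4 at 1085 TPM, and Cat was lowest at 66.4 TPM.

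**Figure D2:**
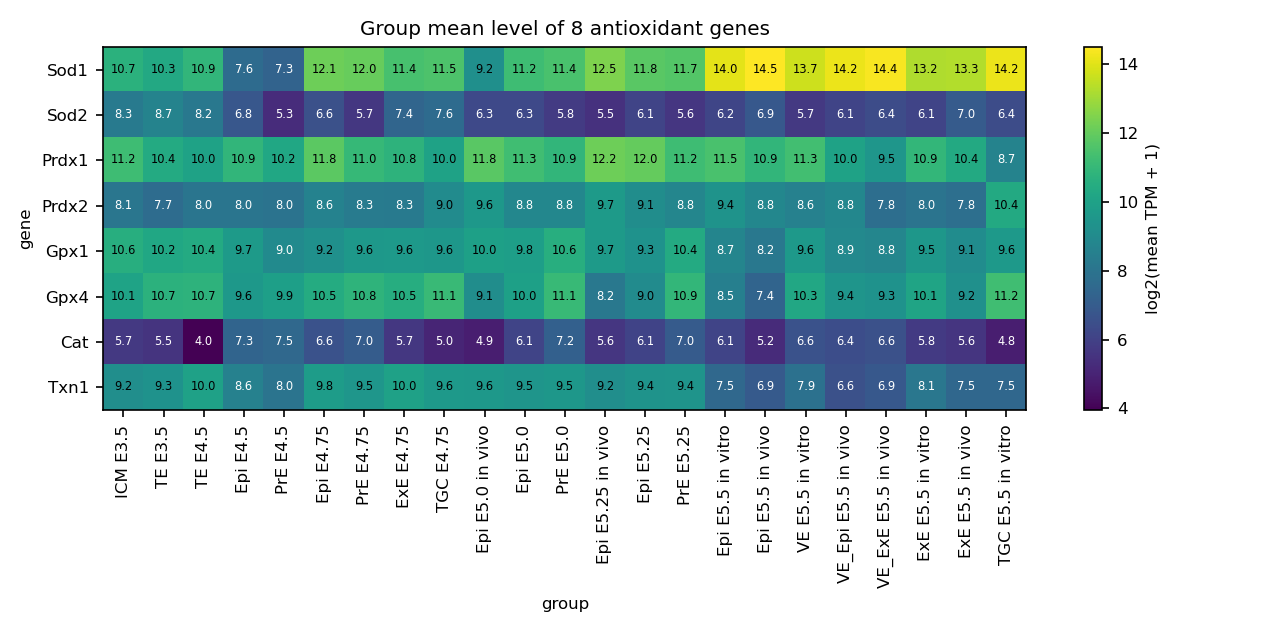
Group means of the 8 genes as log2(mean TPM + 1), printed in each cell and shown by colour, with groups in order of labelled stage. Sod1 is lowest in PrE of E4.5 (159 TPM) and highest in Epi of E5.5 in vivo (23046 TPM), and Txn1 is low in every E5.5 group, at 95.1 TPM in VE_Epi.

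These 7 genes were tested with limma on log2(TPM + 1) over all libraries, and p-values received the Benjamini-Hochberg adjustment across the 15567 genes. Each SE and p thus rests on a spread pooled over the 23 groups, and not on the groups compared alone. A call needed an adjusted p under 0.05 and a difference of at least 1 log2. Over 9 comparisons between tissues of 1 stage, 10 of 63 member results were called, 7 higher and 3 lower, beside 21.3% of all gene results (8.58% higher, 12.7% lower). Over 12 comparisons between stages, 15 of 84 were called, 5 higher and 10 lower, beside 16.5% (9.01% and 7.53%). Over 4 comparisons between culture labels, 2 of 28 were called, both higher, beside 17.3% (13.9% higher, 3.46% lower). The members were thus called about as often as other genes between tissues and stages, and less often than others between culture labels, a difference in shares that was not tested.

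**Figure D3:**
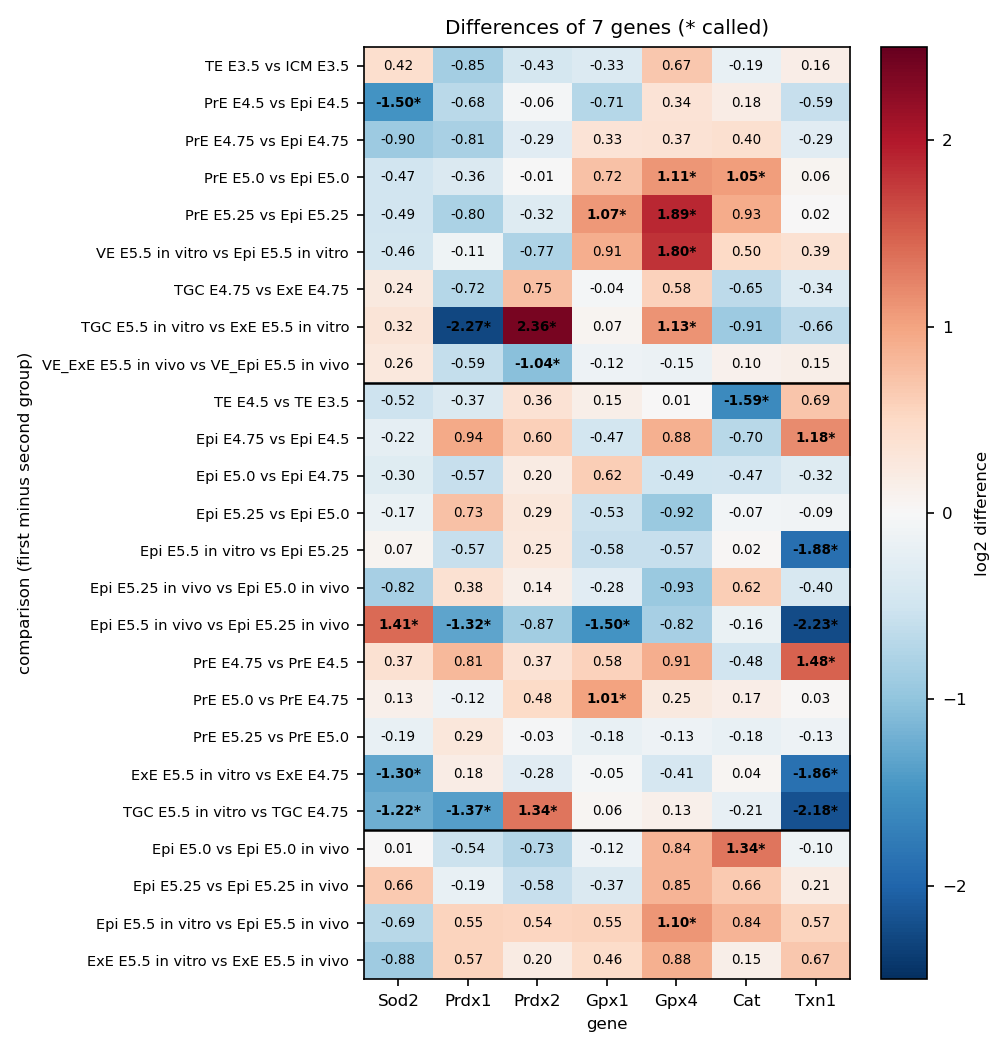
Log2 differences (first group minus second) of the 7 tested genes in 25 comparisons, tissues above, stages in the middle and culture labels below, with asterisks on those called. Txn1 is at -1.88, -2.23, -1.86 and -2.18 in the 4 steps into E5.5, while Gpx4 is at 1.11, 1.89 and 1.80 in PrE or VE against Epi from E5.0 on.

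Sod2 (chromosome 17, 13006846 to 13040063) was highest in the blastocyst, at 408 ± 7.39 TPM in TE of E3.5, 304 ± 2.10 TPM in ICM and 284 ± 3.24 TPM in TE of E4.5 (n = 3 each). Its level was lowest in PrE of E4.5, at 35.1, 34.1 and 46.9 TPM, against 109, 113 and 109 TPM in Epi of the same day. Every PrE library lay below every Epi library, and the log2 difference was -1.50 ± 0.16 (SE; limma adjusted p 1.4e-11), with 1 of 7 members called beside 28.6% of all genes. Later PrE stayed below Epi without overlap, at -0.90, -0.47 and -0.49 log2 at E4.75, E5.0 and E5.25 (limma adjusted p 7.3e-06, 0.015 and 0.013). These differences were under the threshold of size and so were not called. The ratio of Sod1 to Sod2 TPM was 65.3 to 372 in the E5.5 libraries, 1.77 to 1.83 in Epi of E4.5 and 3.71 to 4.71 in PrE of E4.5. This ratio carries the Sod1 values that chose the genes. The median of Sod2 itself was 78.5 TPM in the E5.5 libraries and 78.4 TPM in the earlier ones.

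Into E5.5, Sod2 went in opposite directions in different tissues. In ExE it fell from 170.0, 164 and 169.7 TPM at E4.75 to 68.0, 61.8 and 72.7 TPM in vitro, a log2 difference of -1.30 ± 0.16 (limma adjusted p 1.5e-09). Giant cell markers in these ExE libraries went from 1711 to 1895 TPM at E4.75 to 175 to 201 TPM at E5.5, and their part in the fall was not tested. In TGC it fell from 203, 194 and 197 TPM to 95.1, 82.6, 81.7 and 79.6 TPM (-1.22 ± 0.15, adjusted p 8.3e-10 in limma), a call lost under median-ratio scaling and quantile normalization. Libraries of the earlier and later day did not overlap in either tissue. In Epi in vivo it rose from 39.2, 37.1 and 52.5 TPM at E5.25 to 97.2 and 135 TPM (1.41 ± 0.17, limma adjusted p 2.2e-09). This last call was lost when only the groups compared were fitted (adjusted p 0.053 in limma), and in vitro the matching difference was 0.07.

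Cat (chromosome 2, 103453849 to 103485160, minus strand), which splits hydrogen peroxide into water and oxygen, was highest in Epi and PrE of E4.5 (160.4 ± 43.8 and 179.5 ± 28.5 TPM) and lowest in TE of E4.5. In TE it fell from 37.5, 48.7 and 50.3 TPM at E3.5 to 11.5, 17.1 and 14.9 TPM at E4.5, without overlap (log2 difference -1.59 ± 0.27, limma adjusted p 5.4e-06). It was the only member of 7 called in that step, beside 21.6% of genes, and was no longer called under quantile normalization (-0.79). Epiblast markers in TE summed to 165 to 204 TPM at E3.5 and 8.19 to 9.31 TPM at E4.5, and endoderm markers to 558 to 579 and 49.5 to 56.9 TPM, and their part in the fall was not tested. From E4.75 to E5.25 the PrE held more Cat than the Epi, but only E5.0 was called: 140.0, 144 and 146 TPM against 66.4, 74.1 and 66.5 TPM, or 1.05 ± 0.27 log2 (limma adjusted p 0.0019). The differences at E4.75 and E5.25 were 0.40 and 0.93 log2. In Epi of E5.0 the group without a culture label lay above the in vivo libraries, which held 41.5, 21.2 and 21.2 TPM (1.34 ± 0.27, adjusted p 9.2e-05 in limma). That call was lost under median-ratio scaling (0.70) and quantile normalization (0.62), and the median of all genes differed by 0.39 in the same direction. The 5 epiblast markers summed to 105 to 176 TPM in those in vivo libraries and 415 to 515 TPM in the unlabelled ones. The 6 endoderm markers summed to 2.48 to 7.69 TPM in vivo and 58.5 to 82.6 TPM in the unlabelled libraries, and the 4 giant cell markers to 10.3 to 27.0 and 92.5 to 108 TPM. The part of these markers in the result was not tested.

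The peroxiredoxins Prdx1 and Prdx2 differed in opposite directions in giant cells. Prdx1 (chromosome 4, 116685544 to 116700822) and Prdx2 (chromosome 8, 84969587 to 84974834) are close relatives in the cytosol that take their electrons from thioredoxin. In 22 of the 23 groups every library held more Prdx1 than Prdx2 on the TPM scale, with ratios between 1.80 and 9.59. In TGC of E5.5 the order was reversed, with ratios of 0.275 to 0.355 in the 4 libraries.

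Prdx1 was 467, 433, 392 and 339 TPM in TGC of E5.5 and 1715, 2097 and 2077 TPM in ExE of E5.5 in vitro, a log2 difference of -2.27 ± 0.13 (limma adjusted p 1.7e-21). Prdx2 was 1315, 1371, 1383 and 1236 TPM in TGC and 236, 244 and 294 TPM in ExE, a difference of 2.36 ± 0.09 (limma adjusted p 9.2e-30). Neither pair of groups overlapped. With Gpx4, 3 of 7 members were called in this comparison, beside 37.8% of all genes, whose median difference was -0.51. Both calls held under every alternative, with Prdx1 between -2.36 and -1.26 and Prdx2 between 2.30 and 3.37. The 4 giant cell markers, which include the abundant prolactin genes Prl3d1 and Prl2c2, summed to 101479 to 115322 TPM in these TGC libraries. Ctsq was at 0 there. The 5 epiblast markers summed to at most 0.251 TPM, and the 4 uterine stroma markers to 65.0 to 70.8 TPM, with Dcn and Prl8a2 at 0.

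At E4.75 the order was not reversed. The TGC libraries of E5.5 are labelled in vitro and those of E4.75 carry no culture label, so stage and culture cannot be told apart in this step, nor in those of ExE and of Epi in vitro into E5.5. Giant cells of E4.75 held Prdx1 at 1111, 929 and 1112 TPM and Prdx2 at 534, 516 and 520 TPM. Against these, Prdx1 fell by 1.37 log2 (SE 0.13, limma adjusted p 4.8e-13) and Prdx2 rose by 1.34 log2 (SE 0.09, limma adjusted p 6.1e-19), both without overlap. Together with Sod2 and Txn1, 4 of 7 members were called, beside 21.3% of genes. The fall of Prdx1 was no longer called under median-ratio scaling and quantile normalization, while the rise of Prdx2 held under every alternative. At E4.75, TGC and ExE differed in neither gene by the threshold (-0.72 for Prdx1 and 0.75 for Prdx2), and 0 of 7 members were called beside 4.36% of genes.

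Elsewhere Prdx1 was highest in Epi of E5.25, at 4436, 4796 and 4735 TPM in vivo and 4177, 4012 and 4039 TPM in the unlabelled group. In vivo it fell to 2036 and 1711 TPM at E5.5 (-1.32 ± 0.15, limma adjusted p 4.2e-10, and up to 0.033 under the alternatives). In vitro the E5.5 libraries spread from 2111 to 3690 TPM and were not called (-0.57). Between the visceral endoderm parts, Prdx2 was lower in VE_ExE, at 224, 234 and 199 TPM, than in VE_Epi, at 476 and 429 TPM (-1.04 ± 0.10, limma adjusted p 1.6e-11), 1 of 7 members called beside 16.3% of genes. That call was lost under median-ratio scaling and on leaving out VE_Epi replicate 1 or VE_ExE replicate 3. Prdx2 shares exon sequence with the antisense genes Junb and Rnaseh2a, and whether counting used strand is not given in the sources used here.

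Txn1 (chromosome 4, 57943373 to 57956411, minus strand), the cytosolic thioredoxin that recycles peroxiredoxins, was lower at E5.5 in each tissue followed from an earlier day. In Epi it fell from 684, 680 and 632 TPM at E5.25 to 171, 166 and 206 TPM in vitro, a log2 difference of -1.88 ± 0.16 (limma adjusted p 8.9e-14). In vivo it fell from 470.5, 609 and 659 TPM to 127 and 116 TPM (-2.23 ± 0.17, limma adjusted p 2.1e-15, and up to 0.015 under the alternatives). No library of E5.5 reached any of E5.25 in either pair.

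Txn1 also fell in the trophoblast tissues. In ExE it went from 998, 1036 and 993 TPM at E4.75 to 223, 303 and 314 TPM in vitro (-1.86 ± 0.16, limma adjusted p 3.2e-14). In TGC it fell from 764, 792 and 835 TPM to 170, 184, 179 and 166 TPM (-2.18 ± 0.15, limma adjusted p 3.8e-18). All 4 calls held under every alternative. The counts of members called were 1 of 7 in Epi in vitro beside 11.8% of genes, 4 of 7 in Epi in vivo beside 30.1%, and 2 of 7 in ExE beside 21.8%. Over all tissues, E5.5 libraries held 65.8 to 314 TPM of Txn1 and earlier ones 243 to 1072 TPM. The overlap came from PrE of E4.5, at 243 to 269 TPM, since Epi of E4.5, the next lowest group before E5.5, was at 381 to 392 TPM.

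**Figure D4:**
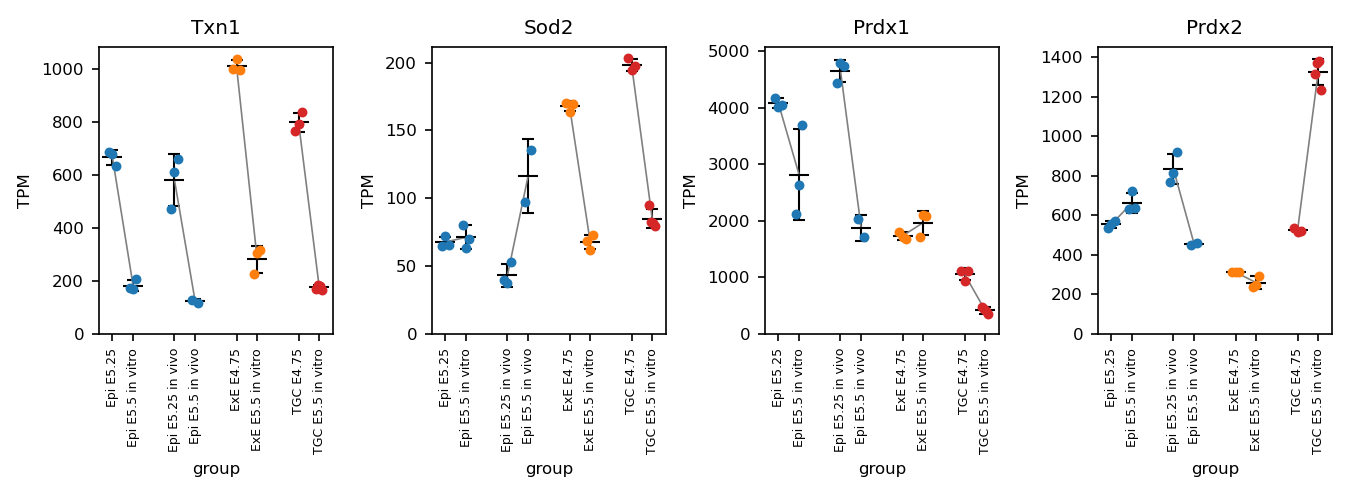
Txn1, Sod2, Prdx1 and Prdx2 in TPM on linear axes, per library (points) with mean and SD, in Epi, ExE and TGC before and at E5.5. Lines join the means of the earlier and the E5.5 group of a tissue. Txn1 is lower at E5.5 in all 4 pairs, the only rise called for Sod2 is in Epi in vivo, and the only one called for Prdx2 is in TGC, where it reaches 1383 TPM.

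Between E4.5 and E4.75 Txn1 had moved the other way. It rose from 264, 243 and 269 TPM to 676, 755 and 735 TPM in PrE (1.48 ± 0.16, limma adjusted p 4.4e-11, 1 of 7 members called beside 21.7% of genes). In Epi it rose from 392, 392 and 381 TPM to 878, 872 and 898 TPM (1.18 ± 0.16, limma adjusted p 1.5e-08, again 1 of 7, beside 24.6%). The Epi call was lost under median-ratio scaling, under quantile normalization and without Rn45s, where its difference was as low as 0.80. Epi and PrE of E4.5 were the groups with the highest Rn45s. In Epi, markers of other tissues were also higher at E4.75 than at E4.5: endoderm markers summed to 172 to 187 against 5.05 to 21.8 TPM, trophectoderm and ExE markers to 969 to 1042 against 348 to 405 TPM, and giant cell markers to 92.3 to 105 against 3.53 to 11.7 TPM. Their part in the rise of Txn1 was not tested.

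Gpx1 (chromosome 9, 108338903 to 108340343), the most widespread glutathione peroxidase, and Gpx4 (chromosome 10, 80047166 to 80056439) were both called higher in PrE than in Epi at E5.25. At E4.5 Gpx4 was 966, 994 and 928 TPM in PrE and 730, 873 and 690.3 TPM in Epi, without overlap, but the difference of 0.34 log2 (limma adjusted p 0.0040) was under the threshold of size. At E5.25 it was 1909, 1890 and 2081 TPM in PrE against 542, 502 and 535 TPM in Epi, with every PrE library far above every Epi library. The log2 difference was 1.11 ± 0.10 at E5.0 (limma adjusted p 6.4e-14) and 1.89 ± 0.10 at E5.25 (limma adjusted p 8.9e-23). For VE in vitro at E5.5, with 1223, 1236 and 1250 TPM against 378, 405 and 290 TPM in Epi, it was 1.80 ± 0.10 (limma adjusted p 6.6e-22). These calls held under every alternative. Members called numbered 2 of 7 at E5.0 beside 24.5% of genes, 2 of 7 at E5.25 beside 21.1% and 1 of 7 at E5.5 beside 28.6%.

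Gpx1 changed sides. At E4.5 it was lower in PrE (465.7, 571 and 476 TPM) than in Epi (780.0, 984 and 731 TPM), by -0.71 log2, which was under the threshold of size. At E5.25 it was higher in PrE (1257, 1333 and 1422 TPM) than in Epi (612, 645 and 645 TPM), by 1.07 ± 0.09 log2 (limma adjusted p 7.6e-15). On neither day did the libraries overlap. The log2 difference of Gpx1 was 0.33 at E4.75, 0.72 at E5.0 and 0.91 for VE in vitro against Epi at E5.5. Each of these was under the threshold of size. The change of the PrE minus Epi difference from E4.5 to E5.25, tested as an interaction in limma, was 1.79 ± 0.12 for Gpx1 (adjusted p 1.3e-16), 1.55 ± 0.14 for Gpx4 (adjusted p 4.1e-13) and 1.01 ± 0.22 for Sod2 (adjusted p 4.9e-04). These were 3 of 7 members, beside 15.9% of all genes. Within PrE itself, Gpx1 rose from 763, 742 and 753 TPM at E4.75 to 1583, 1440 and 1518 TPM at E5.0 (1.01 ± 0.09, limma adjusted p 6.4e-13), 1 of 7 members beside 4.03% of genes. That difference lay so close to the threshold of size that it dropped below it without PrE E4.75 replicate 2 (0.996) or without PrE E5.0 replicate 1 (0.97).

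**Figure D5:**
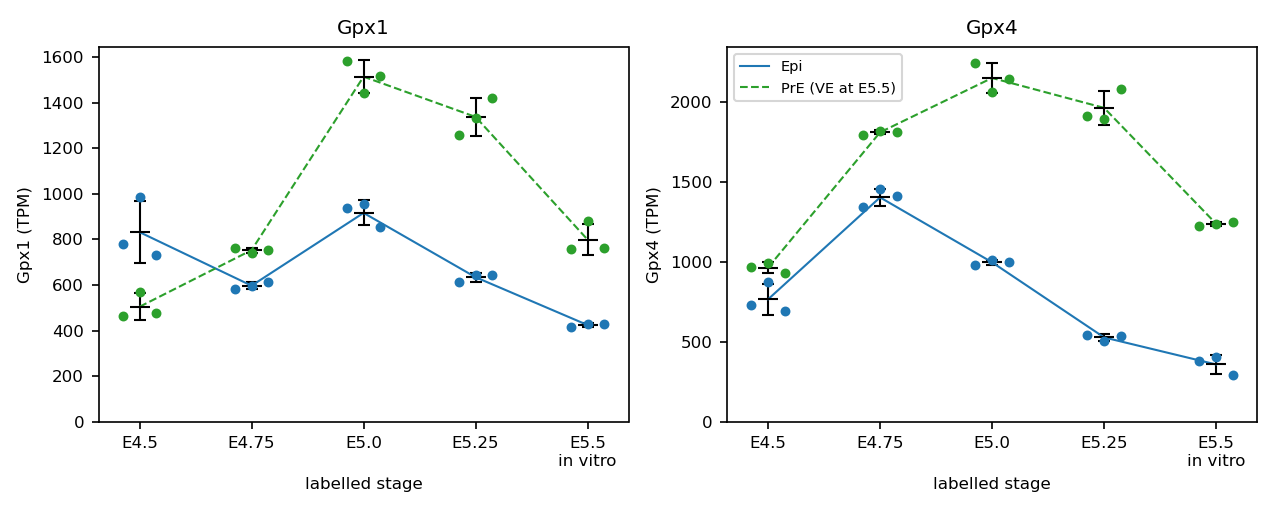
Gpx1 and Gpx4 in TPM on linear axes against labelled stage, per library (points) with mean and SD, for Epi (solid line) and PrE (dashed line, VE in vitro at E5.5). Gpx1 starts lower in PrE at E4.5 and is above Epi from E4.75 on, and Gpx4 reaches 2243 TPM in PrE at E5.0 while Epi of E5.5 holds 290 to 405 TPM.

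Epiblast and endoderm markers separated the libraries of E5.25. The 6 primitive and visceral endoderm markers summed to 5624 to 5888 TPM in PrE of E5.25 and 3.62 to 4.51 TPM in Epi of E5.25, where Gata6 and Ttr were at 0. Pdgfra is among these 6, and a reporter under its promoter was used to isolate lineages, so it may not be an independent marker. The 5 epiblast markers summed to 460.0 to 502 TPM in Epi and 0.638 to 1.40 TPM in PrE, with Nanog and Fgf4 at 0. The 5 trophectoderm and ExE markers (Cdx2, Eomes, Elf5, Krt18 and Tfap2c) rose in PrE from E4.5 to E5.25. They were higher still in VE in vitro at E5.5, but lower than in PrE of E5.25 in VE_Epi and VE_ExE in vivo. They summed to 62.0 to 90.5 TPM in PrE of E4.5, 240 to 245 TPM at E4.75 and 883 to 903 TPM at E5.0. Sums were 1848 to 2099 TPM in PrE of E5.25, 2228 to 2538 TPM in VE in vitro and 507 to 558 TPM in Epi of E5.25. In vivo at E5.5 they were 960 to 991 TPM in VE_Epi and 470 to 1020 TPM in VE_ExE. Which of the 5 genes carried these sums was not tested. Cdx2 was at 0 in PrE of E4.5, E4.75 and E5.0 and in VE in vitro, VE_Epi and VE_ExE, and Elf5 in PrE of E4.5 and VE_Epi. Mean Gpx1 and Gpx4 were lower in VE in vitro (799 and 1236 TPM) than in PrE of E5.25 (1337 and 1960 TPM). At E4.75, PrE held 110.1 to 121 TPM of the epiblast markers and Epi 172 to 187 TPM of the endoderm markers. The part of these marker changes in the Gpx1 and Gpx4 results was not tested. The blood markers summed to at most 19.6 TPM in any library.

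In Epi of E5.5 in vivo both genes reached their lowest level, at 303 and 275 TPM for Gpx1 and 167 and 162 TPM for Gpx4. Gpx1 fell there from 770, 903 and 793 TPM at E5.25 (-1.50 ± 0.10, limma adjusted p 3.4e-18, and up to 0.014 under the alternatives). Gpx4 had been 296, 292 and 287 TPM and was not called (-0.82). Epi of E5.5 in vitro held more Gpx4 than in vivo (1.10 ± 0.11, limma adjusted p 1.7e-11), 1 of 7 members called beside 21.8% of genes. This call was lost under median-ratio scaling (0.85) and when only the groups compared were fitted (adjusted p 0.051 in limma). At the other extreme, Gpx4 was 2242, 2340, 2495 and 2615 TPM in TGC of E5.5 and 1230, 1028 and 1070 TPM in ExE in vitro (1.13 ± 0.09, limma adjusted p 1.3e-15). Giant cells of E4.75 were already near that level, at 2202, 2338 and 2090 TPM, overlapping those of E5.5 (0.13 log2, not called). The ratio of Gpx4 to Gpx1 ran from 0.323 to 0.384 in Epi of E5.25 in vivo. It was 2.83 to 3.09 in TGC of E4.75 and at least 2.78 in TGC of E5.5. The ExE libraries of E5.5 in vitro carried 712 to 828 TPM of the endoderm markers, and those in vivo 3.26 to 11.0 TPM, and the part of these cells in the ExE values was not tested.

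In the remaining comparisons no member was called: TE against ICM at E3.5 (13.5% of genes called), PrE against Epi at E4.75 (17%), Epi from E4.75 to E5.0 (7.61%) and from E5.0 to E5.25 (5.72%), and Epi in vivo from E5.0 to E5.25 (24.2%). The same held for PrE from E5.0 to E5.25 (4.1%), for the culture labels of Epi at E5.25 (10.7%) and for those of ExE at E5.5 (11.8%). Without the minimum difference, 41 of 63 member results between tissues, 49 of 84 between stages and 20 of 28 between culture labels passed the adjusted p alone. The share of all genes at that setting was not computed, so these counts show nothing particular to the members.

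Of 32 other genes of the pathway, all of which passed the filter, 70 of 288 results between tissues were called (38 higher, 32 lower), 104 of 384 between stages (41 higher, 63 lower) and 37 of 128 between culture labels (31 higher, 6 lower). These lie beside the same 21.3%, 16.5% and 17.3% of all genes. In PrE against Epi, the secreted peroxidase Gpx3 was higher at E4.5 (292 ± 22.5 against 7.81 ± 7.15 TPM, 5.71 log2), E4.75 (2.19), E5.0 (2.36) and E5.25 (2.63). Glrx, a glutaredoxin that uses glutathione to reduce protein disulfides, was higher in PrE at E4.75 (2.35), E5.0 (3.49) and E5.25 (3.84), and in VE at E5.5 (398 ± 43.7 against 11.9 ± 4.84 TPM, 5.03 log2). Gpx7, a peroxidase of the endoplasmic reticulum, was lower in PrE at each of these days and in VE (-4.35). The limma adjusted p of these results was at most 0.05.

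Glrx5 and Gclm led the changes of the 32 genes between E4.5 and E4.75 in both tissues. Glrx5, the mitochondrial glutaredoxin of iron-sulfur assembly, rose from 5.98 ± 4.72 to 242 ± 1.67 TPM in Epi (5.46 log2, limma adjusted p 5.3e-18) and from 48.1 ± 10.0 to 407 ± 19.4 TPM in PrE (3.08). Gclm, the modifier subunit of the enzyme that starts glutathione synthesis, rose by 4.13 log2 in Epi and 3.02 in PrE. In Epi, Gclm then fell by 2.87 log2 at E5.0, and Glrx5 fell by 2.29 log2 in PrE. Both rose again at E5.25, in Epi by 2.10 (Gclm) and 2.47 (Glrx5) and in PrE by 1.16 and 1.91. In TE, Hmox1, the heme oxygenase that is a classical NRF2 target, rose from 19.6 ± 3.13 to 154 ± 26.2 TPM between E3.5 and E4.5 (2.91 log2).

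In TGC from E4.75 to E5.5, 12 of the 32 genes fell and 1 rose, beside 14.8% and 6.57% of all genes, with Gpx2 (-3.39) and Gclm (78.1 ± 4.68 to 8.41 ± 2.91 TPM, -3.11 log2) furthest down and Glrx2, a mitochondrial glutaredoxin, up (1.42). Against ExE of E5.5 in vitro, 13 were lower and 6 higher, beside 31.5% and 6.28% of all genes, among them Keap1 at 0.273 ± 0.276 against 25.1 ± 5.92 TPM (-4.35 log2) and Gpx3 (-4.48). The median over the 32 genes was -0.47, beside -0.51 over all genes. In Epi in vivo, Sephs2, which makes the selenium donor needed for Gpx1 and Gpx4, rose from 19.3 ± 3.02 TPM at E5.0 to 131 ± 11.0 TPM at E5.25 and 1221 ± 38.9 TPM at E5.5 (2.71 and 3.21 log2 per step, limma adjusted p 4.1e-19 and 2.1e-20). Sod3, the secreted superoxide dismutase, had a median group mean of 0 TPM, and Ccs, the copper chaperone of Sod1, ran only from 39.3 TPM in ICM to 114 TPM in Epi of E4.5.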

How the data were processed

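RNA was measured by Smart-seq2 with 17 amplification cycles, as the labels' protocols state. What the authors deposited is 1 table of TPM for 25006 genes in 67 libraries, and every column was matched to a sample by title. The mm10 build, StringTie 2.2.1, HISAT2 2.2.1 and Cufflinks are named in the submitters' processing notes. Their roles and the annotation are not given in the sources used here. Columns summed to 985702 to 996469 TPM. TPM keeps no depth, so counting errors are unknown, and 8423 to 12644 genes reached 1 TPM in a library. Within groups, Pearson r across genes was between 0.891 and 0.996 (median 0.988), and 0 pairs of libraries held identical values.

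Values were fitted as log2(TPM + 1), which understates the change of low genes, for the 15567 genes that reached 1 TPM in 3 or more libraries. limma 3.58.1 in R 4.3.3 fitted the means of 23 groups with an intensity trend and was tested on simulated data. Adjustment over all genes and the call rule (adjusted p under 0.05, at least 1 log2) are as in the report, and differences are given ± standard error. Pathway genes named are up to 2 called per direction and comparison by size; Ccs and Sod3 were added after their values were seen. Genes like Sod1 are the 8 highest and 4 lowest by r, without predicted, mitochondrial and Y-linked genes. The members and all lists were chosen with earlier results of these data known. Replicate numbers were not treated as pairs: of 21 comparisons with 3 numbered pairs, 0 had same-numbered libraries deviating together in every pair (r over 0.1). Near copies were sought with blastn 2.17.0 in coding sequences of GENCODE on GRCm38, at 90% identity over 200 bases. Sod1 and Txn1 had 1 each, Prdx2 and Gpx4 had 2 each and Prdx1 had 3, none in the table, so reads from them are uncertain. Figures were drawn with matplotlib 3.10.9. The alternatives left out each library in turn, dropped the minimum difference, the filter or Rn45s, took a pseudocount of 0.1 TPM, scaled by median ratios or normalized by quantiles, added array weights or a replicate block, and fitted only the groups compared.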

Additional observations from a re-analysis of the deposited data

Results flagged for a closer look

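For 3 genes the difference between primitive endoderm and epiblast was not the same on E4.5 as on E5.25, by a test of that change over all libraries in limma. The change was 1.79 log2 for Gpx1, 1.55 log2 for Gpx4 and 1.01 log2 for Sod2. The values for Gpx1 and Gpx4 passed the threshold under every alternative, from 1.66 to 2.14 and from 1.46 to 1.76. That for Sod2 ran from 0.93 to 1.16 and dropped below the threshold of size with array weights and without any 1 of 6 libraries, namely Epi E4.5 replicate 2, Epi E5.25 replicates 1 and 3, PrE E4.5 replicates 1 and 2 and PrE E5.25 replicate 1. Rn45s was highest in Epi and PrE of E4.5, and its part in these changes was not tested beyond the fit without it, which kept all 3 calls.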

How the results depend on the processing

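Of 30 member results called, 20 kept their call under every alternative, 10 lost it under at least 1, and 0 changed direction. Without the minimum difference, member calls were 41 between tissues, 49 between stages and 20 between culture labels, and pathway calls between tissues were 107. No share of all genes was computed at that setting. With only the groups compared in the fit, 1 member was called between culture labels. Without Rn45s the log2 range of Sod1 was 6.90. The cause of these changes was not tested beyond the construction of each setting. Leaving out 1 library at a time gave 9 to 11 member calls between tissues, 14 to 16 between stages, 2 to 3 between culture labels and 2 to 3 in the interaction, 67 to 73 pathway calls between tissues and 98 to 108 between stages, and a Sod1 range of 7.10 to 7.25. With the replicate block there were 10, 15 and 2 member calls and 3 in the interaction, as without it, so the numbering changed no member call; pathway calls were 68 and 104. Median-ratio scaling lost 6 member calls and gave 12 others, such as Gpx1 in TGC against ExE of E5.5 (1.08 against 0.07 log2). Quantile normalization lost 5 and gave 7. Depth is unknown in TPM, which limits what can be said of genes of few TPM.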
